A study of Mus musculus with 4 samples.

Results

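The mitochondrially encoded mRNAs were examined in RNA precipitated either by anti-TSSK2 or by mouse IgG from cross-linked testicular germ cells of adult C57BL/6 mice. The members were 9 mRNAs chosen by name, mt-Nd1, mt-Nd2, mt-Nd4 and mt-Nd5 of complex I, mt-Cytb of complex III, mt-Co1, mt-Co2 and mt-Co3 of complex IV and mt-Atp6 of ATP synthase, out of 21936 genes in the count table. The table holds 13 genes of the mitochondrial chromosome, and the other 4 are mt-Nd3, mt-Nd4l, mt-Nd6 and mt-Atp8. The groups were 2 TSSK2-IP libraries, from precipitation with anti-TSSK2, and 2 control IgG-IP libraries, from precipitation with mouse IgG. TSSK2 is a testis-specific serine/threonine kinase that marks the late chromatoid body (late-CB), a ribonucleoprotein granule of elongating spermatids. The labels name no genetic change or drug for either group, the germ cells were freed by collagenase and passed through a strainer without any sorting, and the pellet of the sonicated lysate was the input of both precipitations. The comparison asks which mRNAs were more abundant with the antibody than with IgG. Nothing in the sources used here says that replicates came from separate animals, so p-values measure the spread between these libraries, which may be technical.

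The mitochondrial genome carries genes for 13 proteins, all subunits of the respiratory chain or of ATP synthase, beside its own rRNAs and tRNAs. It is transcribed into long precursors, and the tRNAs between the coding parts mark where the precursor is cut into single mRNAs. These mRNAs stay in the mitochondrial matrix and are translated there by mitochondrial ribosomes, while all other subunits of the same complexes are encoded in the nucleus and made in the cytoplasm. In late spermatids the mitochondria are arranged around the growing tail to form the midpiece.

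Pieces of mitochondrial DNA also lie in the nuclear chromosomes, and the sequences are shown first because several members share long stretches with such a piece. In the mouse genome GRCm38 the largest piece is on chromosome 1, chr1:24611535-24616188 on the minus strand, and matches bases 6390 to 11042 of the mitochondrial genome (chrM) with 99.9% identity and only 3 differences. The differences lie in mt-Co1, in mt-Nd3 and in the tRNA gene mt-Tr. GENCODE vM21 lists 7 genes on the piece, all 7 of them unprocessed pseudogenes, and 0 of them were among the genes whose counts were analysed here. Only 2 of the 21936 counted genes were of that type, so their absence says little about the piece. The whole of mt-Co2, mt-Atp6 and mt-Co3 lies in the piece, as do 31.3% of the bases of mt-Co1 (its 3′ part) and 63.6% of those of mt-Nd4 (its 5′ part). The bases of mt-Nd1, mt-Nd2, mt-Nd5 and mt-Cytb lie outside it. The stretch chrM:6334-6453, inside the coding sequence of mt-Co1, runs across the start of the identical part, and chrM:10983-11102, inside that of mt-Nd4, runs across its end. Capitals mark the part that is the same on chromosome 1.
mt-Co1: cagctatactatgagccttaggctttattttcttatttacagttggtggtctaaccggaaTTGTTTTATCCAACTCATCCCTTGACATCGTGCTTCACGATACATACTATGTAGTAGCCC
mt-Nd4: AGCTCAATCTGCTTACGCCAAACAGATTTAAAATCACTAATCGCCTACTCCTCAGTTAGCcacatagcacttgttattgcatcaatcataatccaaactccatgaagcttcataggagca

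The first 90 bases of mt-Co2, chrM:7013-7102, show how alike the copies are. They are set beside the copy on chromosome 1, chr1:24615476-24615565, and a further copy on chromosome 2, chr2:22587873-22587962, both on the minus strand. Capitals mark bases that differ from mt-Co2. The copy on chromosome 1 differs at 0 of these bases and that on chromosome 2 at 2.
mt-Co2: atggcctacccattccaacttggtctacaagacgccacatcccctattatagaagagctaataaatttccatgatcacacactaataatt
chromosome 1 copy: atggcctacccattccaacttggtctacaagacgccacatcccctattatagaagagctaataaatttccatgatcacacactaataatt
chromosome 2 copy: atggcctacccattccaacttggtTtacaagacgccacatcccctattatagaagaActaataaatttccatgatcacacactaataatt

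Windows of 150 bases, the length of 1 read, were taken along each gene and compared with the nuclear chromosomes. An identical nuclear copy existed for 100% of the windows of mt-Co2, mt-Atp6 and mt-Co3, for 59.2% of those of mt-Nd4 and for 23.6% of those of mt-Co1. It existed for 0% of the windows of mt-Nd1, mt-Nd2, mt-Nd5 and mt-Cytb. When up to 2 mismatches were allowed, the share rose to 44.8% for mt-Co1 and to 3.71% for mt-Nd2, and it stayed at 59.2% for mt-Nd4.

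The libraries held between 3938922 and 9858941 counts. Levels are given as normalized CPM, counts relative to library size on the usual CPM scale, with library sizes scaled by the TMM method of edgeR, where 1 count was worth between 0.156 and 0.230 CPM. Germ cell markers were abundant in all libraries, with 1240 to 2463 counts for Prm1 and 5794 to 17867 for Prm2, the protamines that pack sperm DNA. Markers of Sertoli, Leydig, peritubular myoid, macrophage and red blood cells were scarce, and no single one exceeded 85 counts in a library. Since these are precipitates from bulk cells, fewer cells of a type, less RNA per cell and less RNA precipitated cannot be told apart. Control IgG-IP replicate 1, the deepest library, had the lowest share of the members, and the comparison of the groups is therefore also given without it. Since it was picked for these values, a smaller difference without it follows by construction.

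Shares are of the counts over the 21936 counted genes, 21780 of them protein-coding, and not of all reads. No annotated type among these genes was rRNA or tRNA. Together the 9 mRNAs took only a small share of these counts in each library. They had 1983 and 1474 counts in TSSK2-IP and 665 and 1133 in control IgG-IP. This was 0.0477% of TSSK2-IP replicate 1 (95% exact Clopper-Pearson interval 0.0456 to 0.0498) and 0.0328% of TSSK2-IP replicate 2 (0.0312 to 0.0345). In control IgG-IP it was 0.00675% of replicate 1 (0.00624 to 0.00728) and 0.0288% of replicate 2 (0.0271 to 0.0305). Intervals and limits cover counting error only. The share was highest in TSSK2-IP replicate 1, lay close together in TSSK2-IP replicate 2 and control IgG-IP replicate 2, and was lowest by a wide margin in control IgG-IP replicate 1. The mean share in TSSK2-IP was 2.27 times that in control IgG-IP. It was 1.40 times when control replicate 1 was left out and 5.97 times when control replicate 2 was. With 2 libraries against 2, an exact two-sided permutation test cannot go below p = 0.333, so no test was made of this ratio.

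**Figure D1:**
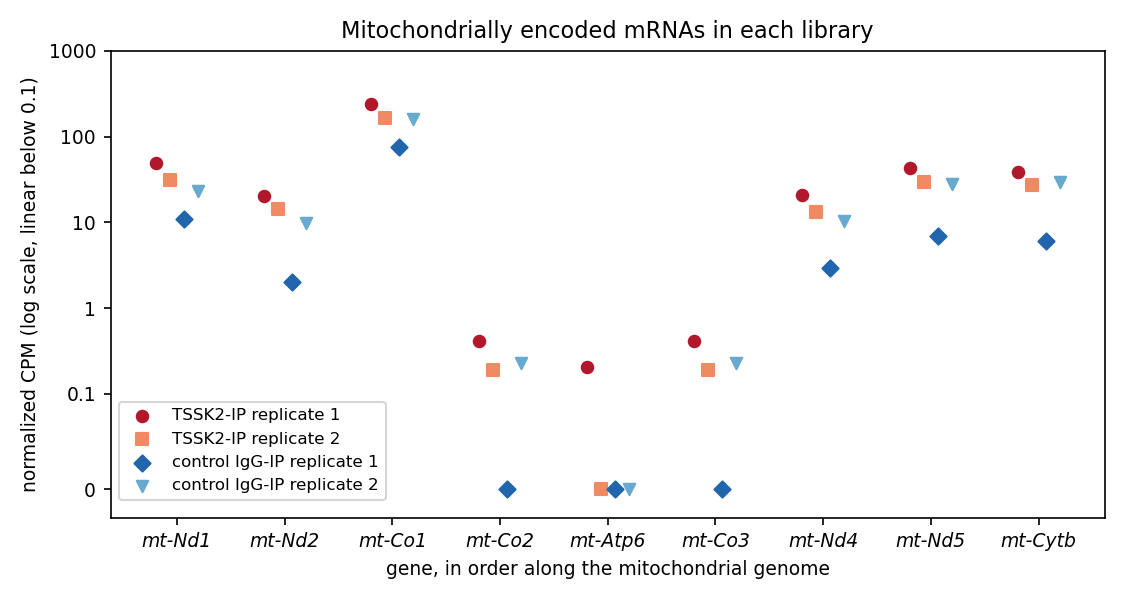
Each point is 1 library, the x axis gives the 9 mRNAs in their order on the mitochondrial genome, and the y axis gives normalized CPM on a log scale that is linear below 0.1. The 3 mRNAs between mt-Co1 and mt-Nd4 sit below 0.5 CPM in all 4 libraries, and control IgG-IP replicate 1 is the lowest library for the other 6.

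Complex I, the NADH dehydrogenase that feeds electrons into the chain, was represented by 4 members. mt-Nd1 (ENSMUSG00000064341, chrM:2751-3707) encodes a membrane subunit at the foot of the complex's matrix arm. It had 234 and 162 counts in TSSK2-IP and 71 and 102 in control IgG-IP, or 48.5 and 30.8 against 11.1 and 23.4 normalized CPM. Its lowest TSSK2-IP value was above its highest control value. The log2 fold change was 1.21 (standard error 0.46) and the adjusted p = 0.301, by the quasi-likelihood test of edgeR and adjusted after Benjamini and Hochberg over the 14722 genes tested.

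mt-Nd2 (ENSMUSG00000064345, chrM:3914-4951), a subunit of the proton-pumping membrane arm, had 97 and 76 counts in TSSK2-IP and 13 and 43 in control IgG-IP. This was 20.1 and 14.5 against 2.03 and 9.88 normalized CPM, again with no overlap between the groups. Its log2 fold change, 1.57 (standard error 0.61, edgeR adjusted p = 0.307), was the highest of the members tested. The lowest library, control IgG-IP replicate 1, rested on its 13 counts.

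mt-Nd4 (ENSMUSG00000064363, chrM:10167-11544), another pumping subunit and one with its 5′ part copied on chromosome 1, had 101 and 70 counts in TSSK2-IP and 19 and 45 in control IgG-IP. The levels were 20.9 and 13.3 against 2.96 and 10.3 normalized CPM and the log2 fold change was 1.39 (standard error 0.57, edgeR adjusted p = 0.329). mt-Nd5 (ENSMUSG00000064367, chrM:11742-13565), the longest of the 9 and the pumping subunit at the far end of the membrane arm, had 209 and 155 counts in TSSK2-IP and 45 and 122 in control IgG-IP. At 43.3 and 29.5 against 7.02 and 28.0 normalized CPM, its second TSSK2-IP library barely exceeded control IgG-IP replicate 2. Its log2 fold change was 1.07 (standard error 0.54, edgeR adjusted p = 0.403). In both mRNAs the groups did not overlap, and for mt-Nd5 the margin was small.

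In complex III, which passes electrons to cytochrome c, the only mitochondrially encoded subunit is cytochrome b. Its mRNA mt-Cytb (ENSMUSG00000064370, chrM:14145-15288) had 186 and 145 counts in TSSK2-IP and 39 and 129 in control IgG-IP. The levels were 38.6 and 27.6 against 6.08 and 29.6 normalized CPM, so control IgG-IP replicate 2 lay between the TSSK2-IP libraries and the groups overlapped. The log2 fold change was 0.91 (standard error 0.57, edgeR adjusted p = 0.490).

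Complex IV, cytochrome c oxidase, reduces oxygen with a catalytic core of 3 mitochondrially encoded subunits. mt-Co1 (ENSMUSG00000064351, chrM:5328-6872), which encodes the subunit that holds the site of oxygen reduction, had by far the most counts. There were 1151 and 864 counts in TSSK2-IP and 478 and 690 in control IgG-IP, or 239 and 164 against 74.6 and 159 normalized CPM. The TSSK2-IP pair was above the control pair, TSSK2-IP replicate 2 by a narrow margin. Its log2 fold change, 0.79 (standard error 0.54, edgeR adjusted p = 0.514), was the lowest of the members tested. mt-Co1 alone took 0.0277% and 0.0192% of the TSSK2-IP libraries and 0.00485% and 0.0175% of the control IgG-IP libraries.

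The other 2 core subunits had hardly any counts. mt-Co2 (ENSMUSG00000064354, chrM:7013-7696), whose product accepts electrons from cytochrome c, had 2 and 1 counts in TSSK2-IP and 0 and 1 in control IgG-IP. mt-Co3 (ENSMUSG00000064358, chrM:8607-9390) had the same counts, 2 and 1 against 0 and 1. mt-Atp6 (ENSMUSG00000064357, chrM:7927-8607), a subunit of the proton channel of ATP synthase, had 1 and 0 counts in TSSK2-IP and 0 in each control library. All of these counts lie below the limit of 3 counts that a count of 0 allows, which for control IgG-IP replicate 1, with 0 of 9858941 counts, is a share of up to 3.04e-05%. These 3 mRNAs did not pass edgeR's filter on low counts, and no fold is given for them.

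The members with too few counts to test were the 3 that lie wholly in the nuclear copy. Of the mitochondrial genes outside the rule, mt-Atp8, mt-Nd3 and mt-Nd4l had 0 counts in all 4 libraries, and an identical nuclear copy existed for 100%, 98.5% and 100% of their windows. mt-Nd6 (ENSMUSG00000064368), a complex I subunit encoded on the opposite strand and with 0% of its windows copied, had 97 and 96 counts in TSSK2-IP and 40 and 55 in control IgG-IP. The neighbours on both sides of the copied part, mt-Co1 and mt-Nd4, were counted in every library. The strand setting of the counting and the handling of reads that match several places are not given in the sources used here, and the part of the nuclear copies in the low counts was not tested. Levels of the partly copied mt-Co1 and mt-Nd4 are uncertain for the same reason.

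**Figure D2:**
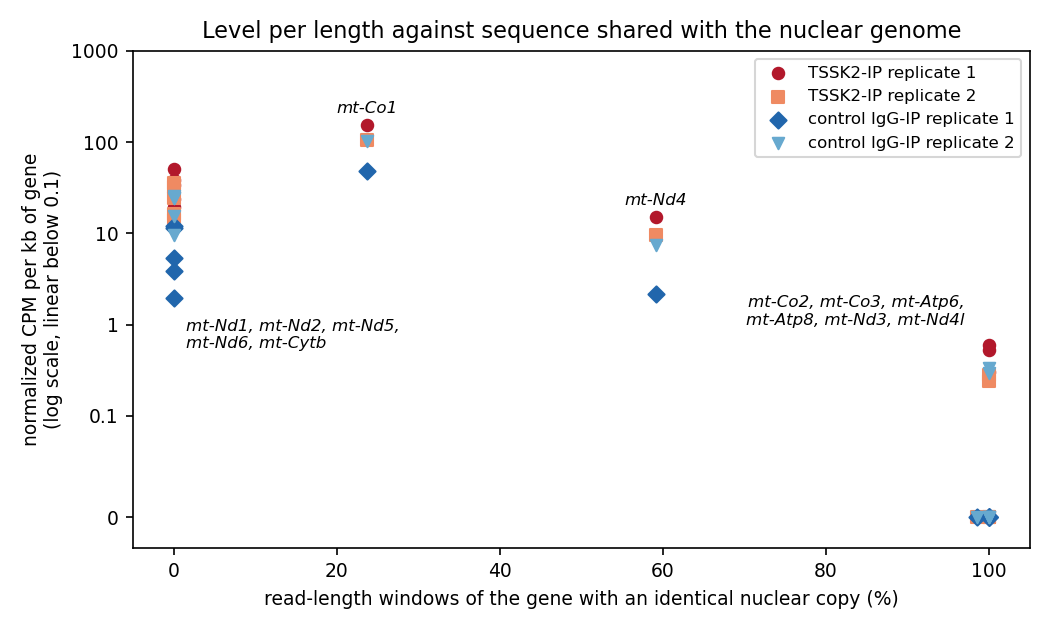
The x axis gives the share of 150-base windows of each of the 13 mitochondrial genes that has an identical nuclear copy, and the y axis gives normalized CPM per kb of gene on a log scale that is linear below 0.1, with 1 point per gene and library. The 6 genes with at least 98.5% of windows copied lie below 1 CPM per kb in all libraries, and the 7 others lie between 1.95 and 154.

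Compared per length, the levels of the members differed widely. In TSSK2-IP, mt-Co1 was at 130.4 ± 34.0 normalized CPM per kb (SD, n = 2), mt-Nd1 at 41.5 ± 13.1, mt-Cytb at 28.9 ± 6.78, mt-Nd5 at 20.0 ± 5.36, mt-Nd2 at 16.7 ± 3.85 and mt-Nd4 at 12.4 ± 3.91. Both mt-Co1 values lay above those of every other member. The values of mt-Nd1 and mt-Cytb overlapped, as did those of mt-Nd5 and mt-Nd2 and of mt-Nd2 and mt-Nd4, while the lower value of mt-Cytb, 24.1, just exceeded the higher one of mt-Nd5, 23.8. In control IgG-IP, mt-Co1 was at 75.4 ± 38.4 and mt-Nd4 at 4.83 ± 3.78 normalized CPM per kb (SD, n = 2), the highest and lowest means of the 6 tested members, although mt-Nd2 was below mt-Nd4 in control IgG-IP replicate 1.

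The place of mt-Nd4 in this order differed when only windows without an identical nuclear copy were taken as its length, a scale that assumes no read of a copied window was counted, which was not tested. Per 1000 windows without an identical nuclear copy, mt-Nd4 was at 41.7 and 26.5 normalized CPM in TSSK2-IP, close to mt-Cytb at 38.8 and 27.7 and above mt-Nd5 at 25.9 and 17.6 and mt-Nd2 at 22.6 and 16.3. On that scale mt-Co1 was at 224 and 154 and stayed the highest, followed by mt-Nd1 at 60.0 and 38.2. Among 21817 genes of known length, mt-Co1 ranked at place 91 and 166 in the TSSK2-IP libraries by CPM per kb and at place 1563 and 243 in the control IgG-IP libraries. mt-Nd2 exceeded 88.6% and 84.3% of genes in TSSK2-IP and 61.1% and 81.5% in control IgG-IP.

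The makeup of the mitochondrial counts within a library does not depend on how libraries are scaled to each other. mt-Co1 made up 58.0% of the members' counts in TSSK2-IP replicate 1 (95% exact Clopper-Pearson interval 55.8 to 60.2) and 58.6% in TSSK2-IP replicate 2 (56.1 to 61.1). In control IgG-IP it made up 71.9% of replicate 1 (68.3 to 75.3) and 60.9% of replicate 2 (58.0 to 63.8). The intervals of the TSSK2-IP libraries and of control IgG-IP replicate 2 overlapped, whereas that of control IgG-IP replicate 1 lay above all of them. In that library mt-Nd2 made up 1.95% of the members' counts, compared with 3.80% to 5.16% in the other libraries. The count of mt-Cytb per count of mt-Co1 was 0.162 and 0.168 in TSSK2-IP and 0.0816 and 0.187 in control IgG-IP. For mt-Nd1 it was 0.203 and 0.188 in TSSK2-IP and 0.149 and 0.148 in control IgG-IP, the one member for which the control libraries had nearly the same ratio.

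**Figure D3:**
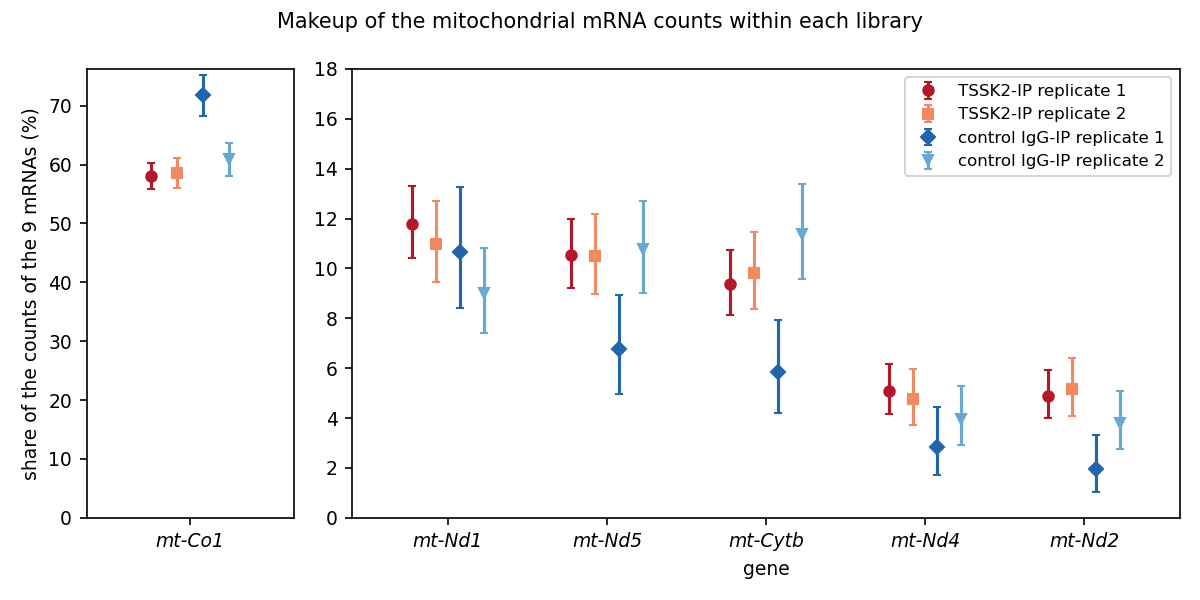
The y axis gives the share of the counts of the 9 mRNAs taken by each of the 6 mRNAs with more than 3 counts, in 2 panels with their own scales that both start at 0, and bars are 95% Clopper-Pearson intervals for counting error. mt-Co1 stands at 71.9% in control IgG-IP replicate 1 and between 58.0% and 60.9% in the other libraries.

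A gene was called when it differed by 1 or more on the log2 scale, in either direction, with 0.05 or less as its adjusted p in the edgeR test. Of the 6 tested members, 0 were called higher and 0 lower. Over all genes tested, 0.693% were called higher and 0% lower. At an unadjusted p under 0.05, 3 of the 6 were higher, mt-Nd1, mt-Nd2 and mt-Nd4, and 0 were lower, compared with 8.34% and 4.89% of all genes. DESeq2 called 0 members in either direction, against 0.654% of genes higher. All 6 log2 fold changes were positive, as were 49.2% over all genes, and 4 of them were at least 1, as were 11.1%. The TSSK2-IP pair was wholly above the control pair for 5 of the 6 and wholly below it for 0, compared with 27.3% and 21.6% of all genes. A gap of at least 2-fold between every TSSK2-IP and every control library was found for 0 of the 6 and for 4.01% of all genes. With the replicate number as a block, 0 members were called, against 1.86% of genes higher and 0.0204% lower. The median log2 fold change of the members was 1.14, beside -0.02 over all genes tested. The members are not independent of each other, since they derive from the same precursor RNAs and were measured in the same libraries.

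The size of the difference depended on control IgG-IP replicate 1, the library with the lowest level of each tested member. The level in control IgG-IP replicate 2 was between 2.12 times (mt-Nd1) and 4.87 times (mt-Nd2 and mt-Cytb) that in replicate 1. Between the TSSK2-IP libraries the ratio, replicate 1 over replicate 2, was 1.39 to 1.57. The members' median log2 difference between these libraries, replicate 1 minus replicate 2, was 0.54, and 8.31% of all genes tested were at least as far above. The median log2 difference of the members between the control libraries, replicate 1 minus replicate 2, was -1.81, and 6.81% of all genes tested were at least as far below. In the same library the 24 markers of Sertoli, Leydig, myoid, macrophage and red blood cells summed to 51.8 normalized CPM, beside 109 and 102 in the TSSK2-IP libraries and 109.6 in the other control library. The gap was larger per library total, at 33.7 CPM beside 119 to 126 in the other 3 libraries. The Sertoli cell list was at 8.43 normalized CPM there and at 18.3 to 27.8 in the others. The Leydig cell list was at 16.1 and at 35.8 to 38.4, and the myoid cell list at 14.4 and at 22.8 to 32.2. The macrophage list was only slightly lower, at 11.9 and at 13.7 to 21.1. The red blood cell list was at 1.09 there and lower, at 0.69, in control IgG-IP replicate 2. Single markers differed. Insl3 of Leydig cells had 0 counts in that library, whereas Acta2 (3.28) and Csf1r (4.68) were above both TSSK2-IP libraries. The 10 germ cell markers summed to 8927 normalized CPM there and to 4602 to 5042 in the others, whereas per library total they were at 5803 and at 5384 to 5571 CPM. Single germ cell markers differed in direction, with Pgk2, a glycolytic enzyme of germ cells, at 1245 normalized CPM there and 290 to 401 in the others, and the acrosomal gene Acrv1 at 70.2 and 116 to 143. Of the 24 markers of other cells 14 were tested, and their median log2 fold change was 0.56, beside -0.02 over all genes. It was 0.07 when control replicate 1 was left out and 0.96 when control replicate 2 was. Genes lower in control replicate 1 than in replicate 2 move this way by construction. The shift therefore repeats the levels above and is no separate likeness to the members. edgeR called 0 of the 14 higher and 0 lower, against 0.693% and 0% of all genes, and 0 passed an unadjusted p under 0.05, against 8.34% higher and 4.89% lower. The part of these differences in the values of the members was not tested.

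Without control IgG-IP replicate 1, the median log2 fold change of the 6 members was 0.60, and single values ran from 0.21 for mt-Cytb to 0.86 for mt-Nd2, so that 0 of them were called, against 5.38% of genes higher and 2.56% lower. mt-Nd1 was then at 0.81 and mt-Co1 at 0.40. Without control IgG-IP replicate 2 the median was 2.33, single values ran from 1.36 for mt-Co1 to 3.0 for mt-Nd2, and all 6 were called, against 17.9% of genes higher and 17.4% lower. The members were lower in control replicate 1 than in replicate 2. The smaller difference without replicate 1 and the larger one without replicate 2 therefore follow by construction. Each of these fits assumes that the lone control library varies like the TSSK2-IP pair.

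**Figure D4:**
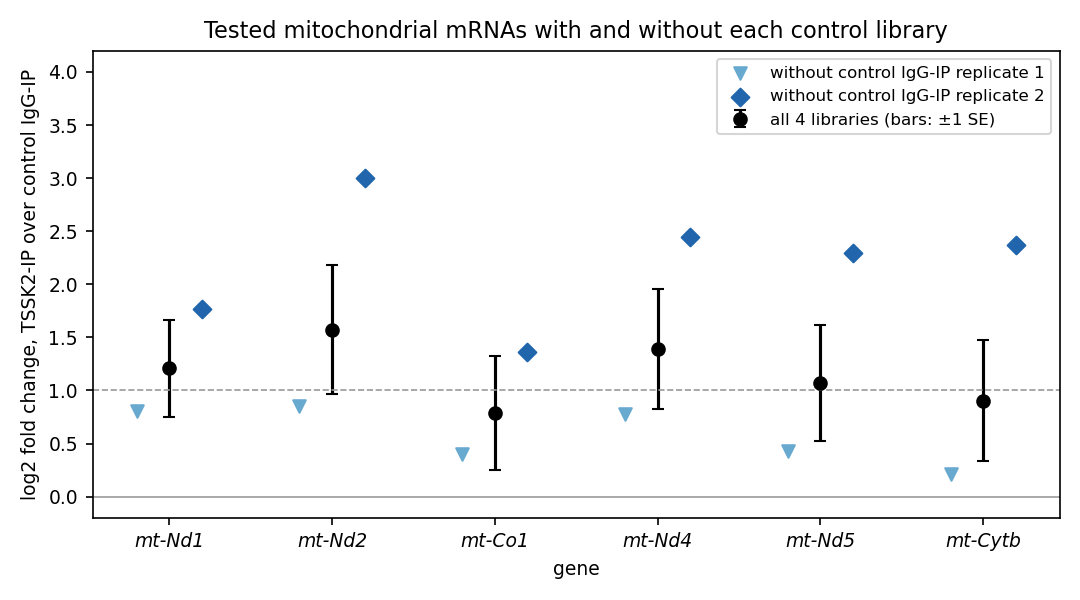
The y axis gives the log2 fold change of TSSK2-IP over control IgG-IP for the 6 tested mRNAs, from all 4 libraries with ±1 standard error and with either control library left out, and the dashed line marks a 2-fold difference. Without control IgG-IP replicate 1 all 6 values lie between 0.21 and 0.86, and without control IgG-IP replicate 2 between 1.36 and 3.0.

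The other genes of the same complexes, encoded in the nucleus, were looked up from lists. Of 87 nuclear OXPHOS subunits with counts listed, 77 were tested, and 0 were called in either direction by edgeR, with 11 higher and 3 lower at an unadjusted p under 0.05, beside 8.34% and 4.89% over all genes. The median log2 fold change was 0.38. The TSSK2-IP pair was wholly above the control pair for 41 of them and wholly below it for 9, beside 27.3% and 21.6% over all genes.

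Within these complexes, the nuclear subunits of complex IV had the highest median, 0.99 over the 10 genes tested of 18 listed. The rest of the list had too few counts to test and is not covered by these values. The groups did not overlap for 9 of the 10, all with TSSK2-IP above, and 7 were higher at an unadjusted p under 0.05, beside 27.3% and 8.34% over all genes. The smallest p belonged to Cox6a1, a small subunit of the oxidase, with 144 and 152 counts in TSSK2-IP and 36 and 50 in control IgG-IP (log2 fold change 1.79, edgeR adjusted p = 0.114). The only one of the 10 with a negative value was Cox5a, at -0.10. The median was 0.87 when control replicate 1 was left out and 1.12 when control replicate 2 was. The log2 fold change of mt-Co1, the one testable mitochondrial mRNA of this complex, was 0.79.

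For complex I the median of 35 nuclear subunits was 0.38, compared with 1.07 to 1.57 for the 4 mitochondrial mRNAs. The extremes by p were Ndufs4 (0.82, edgeR adjusted p = 0.386) and Ndufa10 (-1.42, edgeR adjusted p = 0.267), both structural subunits of the enzyme. The 11 genes of complex III and cytochrome c had a median of 0.52 and ran from -0.52 to 1.81. Among them the genes of smallest p in each direction were Uqcrq at 1.13 and Uqcrc1 at -0.52. The 17 tested subunits of ATP synthase had a median of -0.02, with Atp5l at 1.41 and the catalytic subunit Atp5b at -1.25. Of complex II, which has no mitochondrially encoded subunit, 4 genes were tested with a median of 0.20, from -1.55 for Sdha to 0.90 for Sdhd. Per length, the median of the 87 nuclear subunits was 10.5 and 9.99 normalized CPM per kb in TSSK2-IP and 7.26 and 8.13 in control IgG-IP. mt-Co1, the highest member per length, was exceeded by 1 of these subunits in each TSSK2-IP library and by 6 and 1 in control IgG-IP. mt-Nd2 was exceeded by many more, 21 and 35 of the 87 in TSSK2-IP and 69 and 40 in control IgG-IP.

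The nuclear genes that copy, transcribe, process and translate the mitochondrial genome had medians close to that of all genes. The median log2 fold change was -0.03 over 14 genes of DNA maintenance and transcription, -0.16 over 18 of RNA processing and stability, -0.15 over 12 translation factors and 0.13 over 72 mitochondrial ribosomal proteins. Of all 116 tested genes of these lists edgeR called 0 in either direction, with 11 higher and 12 lower at an unadjusted p under 0.05, beside 8.34% and 4.89% over all genes. Of the 18 RNA processing genes 2 were higher and 5 lower at that p, and of the 12 translation factors 0 and 3. The TSSK2-IP pair was wholly above the control pair for 5 of the 18 and wholly below it for 8, beside 27.3% and 21.6% over all genes. The genes of smallest p within each list among those with positive log2 fold changes were Mterf4, a factor needed to assemble the mitochondrial ribosome (1.32), Rexo2, an oligoribonuclease (1.12), the ribosomal protein gene Mrps9 (1.34) and the elongation factor gene Tsfm (1.21). Among those with negative values they were the elongation factor gene Tufm, at -1.73 (edgeR adjusted p = 0.129), Fastk at -1.52, Mrpl40 at -1.32 and Tefm, at -2.20 on 1 and 7 counts in TSSK2-IP and 29 and 12 in control IgG-IP. Tufm had 51 and 69 counts in TSSK2-IP and 339 and 111 in control IgG-IP.

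**Figure D5:**
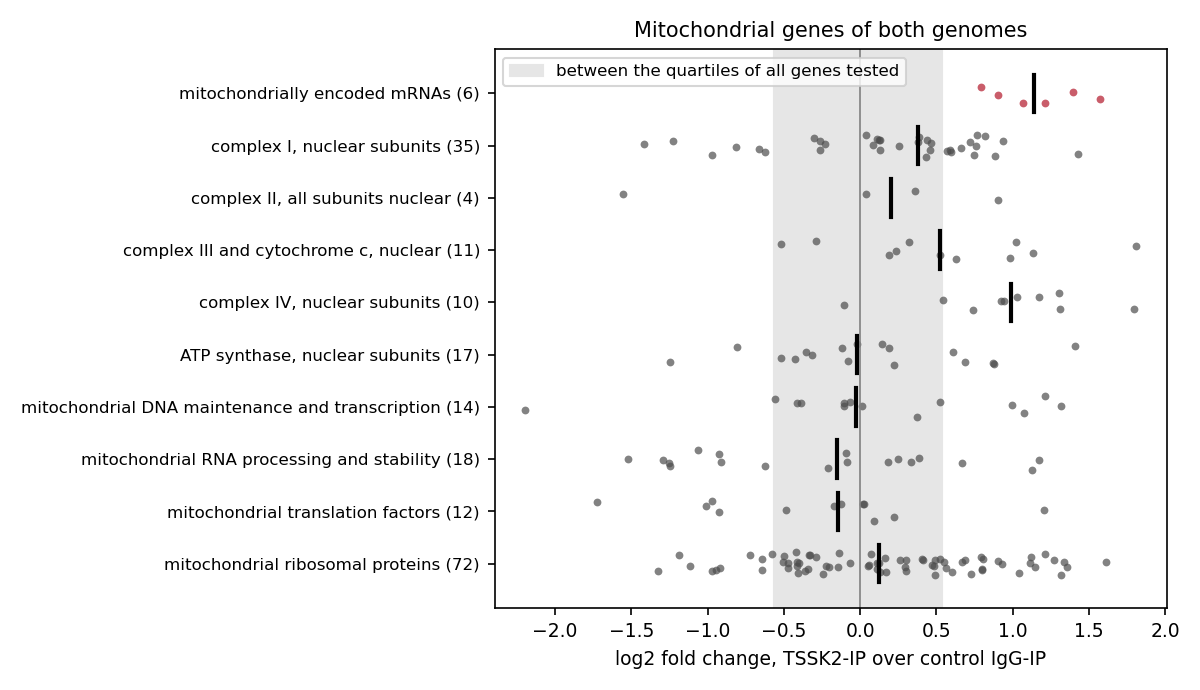
Each point is the log2 fold change of 1 tested gene, grouped by list with the number of genes in brackets, bars are list medians, and the grey band runs between the quartiles of all genes tested. The median is 1.14 for the mitochondrially encoded mRNAs and 0.99 for the nuclear subunits of complex IV, and between -0.16 and 0.52 for the other lists.

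The members also shared a pattern over the 4 libraries, high in TSSK2-IP replicate 1 and low in control IgG-IP replicate 1. On centred log2 CPM, mt-Nd5 and mt-Nd4 lay nearest to the mean profile of the 6, at Euclidean distances of 0.19 and 0.19, and mt-Co1 farthest, at 0.63. Among 8873 other genes with a mean of at least 10 CPM, the 5 with the nearest profile were Tigd5 (distance 0.06), Plppr2 (0.15), Spred3 (0.17), Rnf8 (0.18) and Slc35e2 (0.21), which are all nuclear genes. Tigd5 had 32.1 and 20.9 normalized CPM in TSSK2-IP and 5.62 and 17.9 in control IgG-IP. None of the 5 was called, at adjusted p-values of 0.307 to 0.413 from the edgeR test, beside 0.693% of all genes called higher. Since these genes were picked by profile, values like those of the members follow from the choice. The likeness, over 4 libraries, is a description.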

How the data were processed

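Directional libraries, made without rRNA removal, were sequenced from 2 TSSK2-IP and 2 control IgG-IP samples. Per the submitters' processing notes, the authors used Trimmomatic 0.39 for trimming, STAR 2.7.10a for mapping to GRCm38 and featureCounts 2.0.3 for counting (the methods name another STAR version), and deposited raw counts per gene. Symbols came from GENCODE vM21, also GRCm38, for 21817 of 21936 identifiers.

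The fit, made in R 4.3.3 over the whole table, used edgeR 4.0.16 (filterByExpr, TMM, glmQLFit and glmQLFTest), with no block and with Benjamini-Hochberg adjustment over 14722 genes. Log2 CPM used a prior count of 2. Alternatives were DESeq2 1.42.0, 3 other scalings, 2 other filters, gene removal, a replicate block and leaving out each library. The mitochondrial genome was searched against the nuclear chromosomes with BLAST+ 2.17.0 (word size 24). Calculations were tested on simulated data.

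All members, the genes of smallest p per list and direction, and the 5 nearest profiles were named. The members and lists were chosen with earlier results of these data known. The limit of 3 counts corresponded to 0.468 to 0.689 CPM. DDX4-IP libraries were not analysed here.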

Additional observations from a re-analysis of the deposited data

How the results depend on the processing

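The members' direction held in every fit run, with log2 fold changes from 0.21 to 3.0 over 12 alternatives. The 6 members were called only without control IgG-IP replicate 2, so the number called ranged from 0 to 6 with 1 library left out. In those fits the median log2 fold change ranged from 0.60 to 2.33, and the ratio of summed shares from 1.40 to 5.97. Beside 2.27 with all 4 libraries, the ratio was 2.21 without Lars2 in the totals and 1.90 with TMM-normalized library sizes. The first of these settings was also meant to remove small non-coding RNAs, but none was annotated among the counted genes. The ratio was 2.56 without mt-Co1 and, chosen after seeing the data, 2.28 over all 13 mitochondrial mRNAs. The pooled SD of the log2 summed share between replicates was 1.08. So wide a spread cannot show that the ratio was stable. Over all genes, the number called higher was 102. It was 20 with upper-quartile normalization, 5 with library totals alone, 283 without a filter on low counts, 29 with at least 10 counts in every library and 274 with the replicate block, and it ranged from 23 to 2755 with 1 library left out. The number called lower was 0, and it was 24 without a filter, 3 with the replicate block and from 0 to 2688 with 1 library left out. Of the nuclear mitochondrial genes, 1 was called higher and 1 lower without a filter, 1 higher with the replicate block, and from 0 to 36 higher and from 0 to 32 lower with 1 library left out. The largest counts of these genes, 36 and 32, came without control IgG-IP replicate 2, where 17.9% of all genes were called higher and 17.4% lower. With all 4 libraries, 193 of the nuclear mitochondrial genes were tested. Their counts were not tested against those of the whole table and are no separate result for these genes. The cause of the changes between settings was not tested. The replicate numbers are not stated to pair libraries, and deviations from the group means in libraries of the same number correlated at 0.13 over 14722 genes. The block called 0 members, with a median of 1.29 against 1.14. mt-Co2, mt-Co3 and mt-Atp6 had too few counts for a test, and the cause of their low counts was not tested.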
